A study of Homo sapiens with 8 samples.

Results

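The neural miRNAs described here are 8 mature arms of 6 miRNA families best known from the nervous system: miR-7-5p, miR-9-5p, miR-9-3p, miR-124-5p, miR-124-3p, miR-128-3p, miR-218-5p and miR-219a-2-3p. They were chosen by name from the 594 miRNAs of the deposited table, and all 8 were present. They comprise 4 of the 227 arms named 5p and 4 of the 300 arms named 3p. Small RNAs were sequenced from H1 cells, an established human embryonic stem cell line, in 4 genotypes with 2 libraries each. The genotypes were homozygous for Dicer-S1344L, hemizygous for Dicer-S1344L, Dicer-null and wild type. The altered Dicer-S1344L lines were engineered with CRISPR-Cas9. The labels call the RNA samples biologically independent but do not give the number of clones behind a genotype. The p-values therefore rest on the spread between these samples, not between clones. For single arms that spread was pooled over all miRNAs and genotypes, so an SE is not the replicate spread of its own arm.

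A miRNA precursor is a hairpin whose left side gives the 5p arm and whose right side gives the 3p arm. Dicer, the enzyme that removes the loop of the hairpin, frees the end of the 5p arm with its RNase IIIb domain and the end of the 3p arm with its RNase IIIa domain, and the serine replaced in S1344L is a cancer hotspot. One arm is loaded into an Argonaute protein as the guide, and its seed (bases 2 to 8) pairs with target mRNAs. miR-124 is the most typical miRNA of neurons, miR-9 acts in neural progenitors through both of its arms, miR-128 is enriched in brain neurons, miR-218 is typical of motor neurons, miR-219a promotes oligodendrocyte differentiation, and miR-7 is found in neurons and neuroendocrine cells. The comparisons ask how the arms of these hairpins fare when Dicer carries S1344L or is missing.

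The RefSeq sequences available here for 6 of the 8 members (build GRCh38.p14) are shown because the seed, in capitals, sets which mRNAs an arm can pair with. Those of miR-124-5p and miR-124-3p are not shown. The first 3 are 5p arms and the last 3 are 3p arms.
miR-7-5p: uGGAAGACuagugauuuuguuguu
miR-9-5p: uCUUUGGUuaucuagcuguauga
miR-218-5p: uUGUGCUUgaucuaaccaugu
miR-9-3p: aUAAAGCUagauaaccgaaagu
miR-128-3p: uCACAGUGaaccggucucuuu
miR-219a-2-3p: aGAAUUGUggcuggacaucugu

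These 6 seeds all differ from each other. Among the 533 miRNAs of the table with a sequence, 0 others shared any of them. The partner arms, released from the opposite side of the same hairpins, are shown because the results turn on the balance between both sides.
miR-7-1-3p: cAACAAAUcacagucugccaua
miR-7-2-3p: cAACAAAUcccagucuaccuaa
miR-218-1-3p: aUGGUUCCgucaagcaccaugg
miR-218-2-3p: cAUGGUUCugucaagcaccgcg
miR-219a-5p: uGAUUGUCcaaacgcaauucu
miR-128-1-5p: cGGGGCCGuagcacugucugaga

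miR-7-1-3p and miR-7-2-3p share a seed, so a higher level of either arm adds to the same seed. Whole hairpins of 3 loci follow, with both arms in capitals and the loop between them in lower case. MIR9-1 lies at chr1:156420341-156420429 on the minus strand, in an intron of C1orf61. MIR218-1 lies at chr4:20528275-20528384 on the plus strand, in an intron of SLIT2. MIR128-1 lies at chr2:135665397-135665478 on the plus strand, in an intron of R3HDM1.
MIR9-1: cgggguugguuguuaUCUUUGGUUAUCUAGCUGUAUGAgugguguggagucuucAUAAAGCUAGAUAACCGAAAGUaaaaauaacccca
MIR218-1: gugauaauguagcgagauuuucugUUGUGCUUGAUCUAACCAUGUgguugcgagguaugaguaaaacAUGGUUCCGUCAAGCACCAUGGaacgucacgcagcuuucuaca
MIR128-1: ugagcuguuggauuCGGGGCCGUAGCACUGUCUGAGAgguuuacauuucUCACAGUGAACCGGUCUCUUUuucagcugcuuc

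Several members come from more than 1 locus. The sequences available here place miR-7-5p in MIR7-1 and MIR7-3, identical in both. By its name it is also paired below with miR-7-2-3p of MIR7-2. miR-9-5p and miR-9-3p are identical in MIR9-1, MIR9-2 and MIR9-3, miR-128-3p is shared by MIR128-1 and MIR128-2, and miR-218-5p by MIR218-1 and MIR218-2, the last within an intron of SLIT3. A read of such an arm cannot be assigned to 1 of its loci. MIR7-1 overlaps an exon of an HNRNPK transcript, and MIR219A2 overlaps an exon of the lincRNA AL359091.1, in both cases on the same strand.

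The number of reads assigned to miRNAs differed by genotype. Reads assigned to miRNAs numbered 2289926 and 1814568 in homozygous, 1000101 and 1833057 in hemizygous, 165317 and 137655 in null and 2680973 and 2725756 in wild-type libraries. Levels are given in RPM, the reads of a library plus 0.5, divided by the denominator the authors used for it and multiplied by 1000000, and 1 read is worth 0.715 to 1.33 RPM. The denominators were 944105 and 831816 in homozygous, 1372334 and 756540 in hemizygous, 1399486 and 751354 in null and 1284190 and 1168795 in wild-type libraries. They are not the totals of miRNA reads. These totals over the denominators were 2.43 and 2.18 in homozygous and 0.729 and 2.42 in hemizygous libraries. They were 0.118 and 0.183 in null and 2.09 and 2.33 in wild-type libraries. Scaling to the totals of miRNA reads gives other levels, most of all in null cells. The hemizygous libraries stood apart from each other, with a median log2 difference of replicate 2 over replicate 1 of 1.93 over all miRNAs, so hemizygous results are also given without replicate 1. The labelled cell type was checked against 8 miRNAs of pluripotent cells, the miR-302, miR-367 and miR-371 to miR-373 arms, whose summed level was 61779 RPM in the lowest and 1.22e+06 RPM in the highest library. The highest sums in any library were 410.3 RPM for the 3 measured fibroblast miRNAs, 669 RPM for the 2 of muscle, 939 RPM for the 2 of endoderm and 1475 RPM for the 3 of blood.

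The 8 members together held 1.31% and 1.20% of miRNA reads in homozygous, 1.74% and 1.29% in hemizygous, 0.713% and 0.663% in null and 1.28% and 0.959% in wild-type libraries. miR-124-3p made up 82.0% and 82.1% of the member reads in homozygous, 87.4% and 82.9% in hemizygous, 76.2% and 78.8% in null and 55.4% and 58.2% in wild-type libraries. It was thus the most abundant neural arm in every library. Ordered by level in wild-type cells, the members were miR-124-3p, miR-7-5p, miR-128-3p, miR-9-5p, miR-218-5p, miR-9-3p, miR-124-5p and miR-219a-2-3p, at ranks 24, 88, 118, 167, 191, 264, 375 and 433 of 594. Among neighbours in that order, the wild-type ranges of miR-124-5p and miR-219a-2-3p overlapped. In homozygous cells miR-7-5p ranked 335 and miR-218-5p 499, while miR-219a-2-3p ranked 185.

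**Figure D1:**
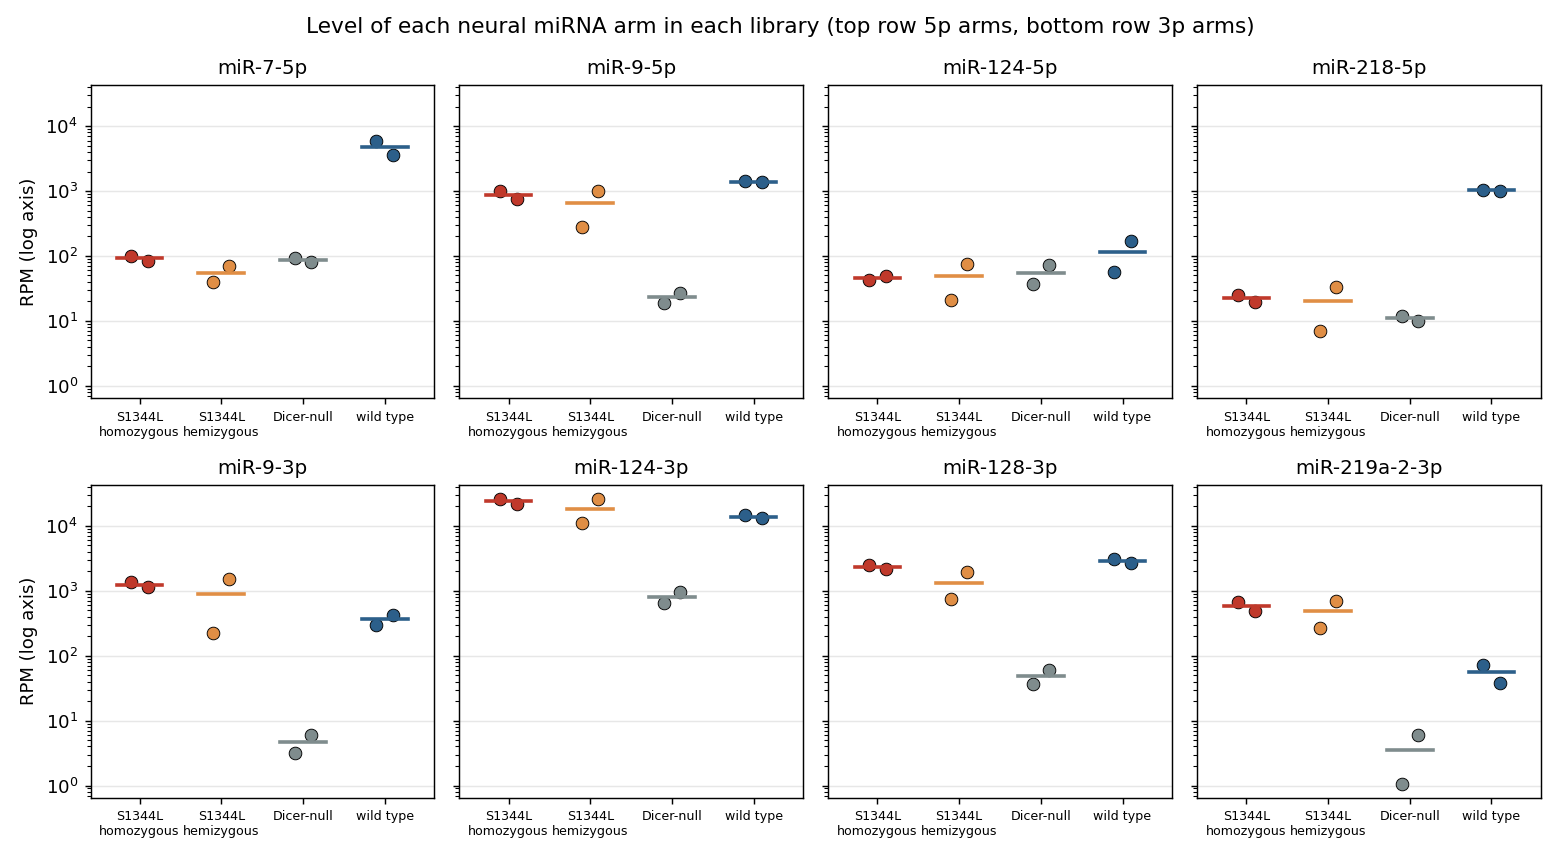
Level of each member in RPM on a log axis, 1 point per library and a line at the mean of the 2 libraries of a genotype, with 5p arms above and 3p arms below. Both wild-type points of miR-7-5p and miR-218-5p lie far above all points of the other genotypes, while both homozygous and both hemizygous points of miR-219a-2-3p lie above the wild type.

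The 5p guides miR-7-5p and miR-218-5p fell in both S1344L genotypes, and 1 of the 3p arms, miR-219a-2-3p, rose in both. miR-7-5p, an arm found in neurons and neuroendocrine cells, was at 101 and 83.6 RPM in homozygous, 39.7 and 70.7 RPM in hemizygous, 94.0 and 80.5 RPM in null and 5959 and 3646 RPM in wild-type libraries. The wild-type libraries did not overlap any other. In such bulk samples, fewer cells with a miRNA and less of it per cell cannot be told apart. The change was −5.65 ± 0.96 (log2 of RPM + 1, SE; limma adjusted p = 1.47e-06) in homozygous cells against wild type and −6.43 ± 0.96 (adjusted p = 9.00e-09) in hemizygous cells against wild type. Of the 227 5p arms, this was the 2nd largest fall in both comparisons. Without hemizygous replicate 1 the hemizygous value was −6.02 (limma adjusted p = 0.000233).

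miR-218-5p was counted 23 and 16 times in homozygous, 9 and 25 times in hemizygous, 16 and 7 times in null and 1352 and 1154 times in wild-type libraries. These reads correspond to 24.9 and 19.8 RPM in homozygous, 6.92 and 33.7 RPM in hemizygous, 11.8 and 9.98 RPM in null and 1053 and 988 RPM in wild-type libraries. The wild-type libraries again stood above all others, and the hemizygous values spanned the homozygous ones. The change was −5.46 ± 1.00 in homozygous cells (log2, SE; limma adjusted p = 8.36e-06), the 3rd largest fall of the 5p arms. It was −5.94 ± 1.00 in hemizygous cells (limma adjusted p = 2.14e-07), the 6th largest, and −4.88 without hemizygous replicate 1 (limma adjusted p = 0.000376).

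miR-219a-2-3p, the 3p arm of an oligodendrocyte miRNA, moved the other way. It was at 664 and 492 RPM in homozygous, 266 and 693 RPM in hemizygous, 1.07 and 5.99 RPM in null and 72.8 and 38.1 RPM in wild-type libraries. All 4 S1344L libraries lay above both wild-type libraries. The change was 3.41 ± 1.00 in homozygous cells (log2, SE; limma adjusted p = 0.00386), the 16th largest rise of 300 3p arms, and 3.004 ± 1.00 in hemizygous cells (adjusted p = 0.0102), the 6th largest. Leaving out either homozygous or either wild-type library kept the homozygous change between 2.96 and 3.87, with limma adjusted p between 0.0501 and 0.137, which misses the threshold of 0.05 each time. Leaving out wild-type replicate 1 or 2 gave hemizygous changes of 3.46 and 2.55 (limma adjusted p = 0.0645 and 0.221), and without hemizygous replicate 1 the value was 3.69 (limma adjusted p = 0.00354).

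In all, 2 of the 4 5p members fell and 1 of the 4 3p members rose in homozygous cells. Among all miRNAs of the table, 22.2% fell and 9.93% rose in that comparison; of all 5p arms 48.9% fell, and of all 3p arms 18.7% rose. The counts were the same in hemizygous cells, where 30.6% of all miRNAs fell and 4.04% rose, 60.8% of all 5p arms fell and 8.00% of all 3p arms rose. Without hemizygous replicate 2, 6 members were called in hemizygous cells, where 62.3% of all miRNAs were. The median change of the 4 5p members was −3.28 in homozygous and −3.66 in hemizygous cells, beside −2.25 and −2.93 over all 5p arms. The 4 3p members had medians of 1.27 and 0.49, beside 0.68 and −0.18 over all 3p arms. The median over all 594 miRNAs was −0.04 in homozygous and −0.89 in hemizygous cells against wild type, and relative to it miR-7-5p changed by −5.61 and −5.54, miR-218-5p by −5.42 and −5.05 and miR-219a-2-3p by 3.46 and 3.90.

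**Figure D2:**
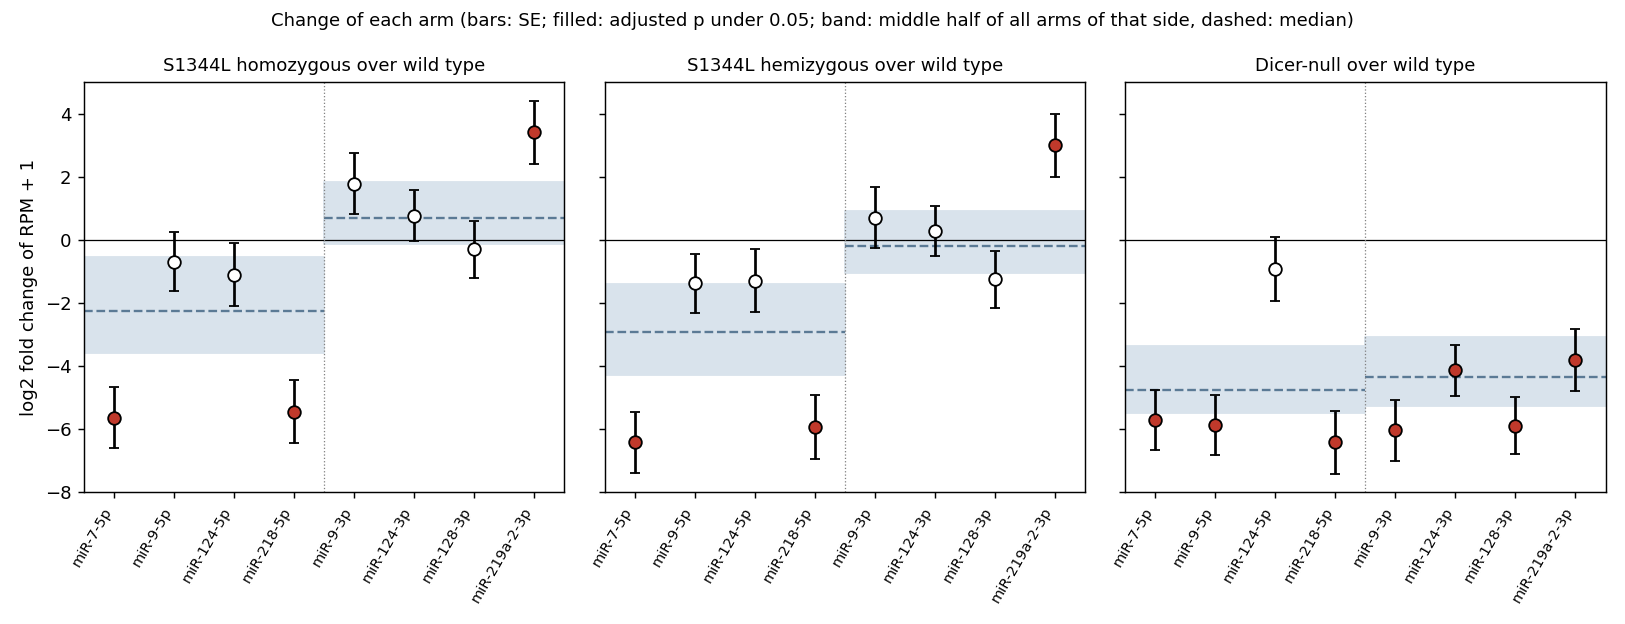
log2 fold change of RPM + 1 of each member against wild type, with SE, in homozygous, hemizygous and Dicer-null cells; filled points have a limma adjusted p under 0.05, the band spans the middle 50% of all 5p or all 3p arms and the dashed line is their median. miR-7-5p and miR-218-5p lie below the band of the 5p arms in both S1344L panels, and miR-219a-2-3p lies above the band of the 3p arms.

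The other 5 members did not pass the test in either S1344L genotype in the main fit. In homozygous cells some of the 19 alternatives tried called miR-9-3p and miR-124-3p higher and miR-9-5p lower. miR-124-3p, which represses the splicing regulator PTBP1 in neurons, was at 26036 and 21552 RPM in homozygous, 11064 and 25850 RPM in hemizygous, 642 and 958 RPM in null and 14849 and 13011 RPM in wild-type libraries. Both homozygous libraries lay above both wild-type ones, and the hemizygous libraries lay on either side of them. The change was 0.77 ± 0.80 in homozygous cells (limma adjusted p = 0.563) with a 95% interval from −0.81 to 2.35, and 0.28 ± 0.80 in hemizygous cells (limma adjusted p = 0.843). miR-124-5p, its opposite arm, was at 42.9 and 48.7 RPM in homozygous, 20.8 and 76.0 RPM in hemizygous, 36.8 and 72.5 RPM in null and 57.2 and 172 RPM in wild-type libraries. Its wild-type libraries differed by a wide margin, and its changes were −1.10 ± 1.00 in homozygous and −1.29 ± 1.00 in hemizygous cells (limma adjusted p = 0.474 and 0.358).

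miR-9-5p, which targets the neuronal repressor REST, was at 993 and 758 RPM in homozygous, 283 and 1013 RPM in hemizygous, 18.9 and 27.3 RPM in null and 1440 and 1363 RPM in wild-type libraries. miR-9-3p, which targets the REST cofactor RCOR1, was at 1361 and 1128 RPM in homozygous, 224 and 1530 RPM in hemizygous, 3.22 and 5.99 RPM in null and 302 and 429 RPM in wild-type libraries. Both homozygous libraries thus had less of the 5p arm and more of the 3p arm than either wild-type library. The changes in homozygous cells were −0.69 ± 0.94 for miR-9-5p and 1.78 ± 0.97 for miR-9-3p (limma adjusted p = 0.667 and 0.159). In hemizygous cells they were −1.38 ± 0.94 and 0.70 ± 0.97 (limma adjusted p = 0.277 and 0.655). Without hemizygous replicate 1, miR-9-3p was called higher at 2.09 (limma adjusted p = 0.0149). With libraries scaled to miRNA reads, miR-9-3p and miR-124-3p were called higher in homozygous cells, at 1.72 and 0.71 (limma adjusted p = 0.00536 and 0.0176), and in hemizygous cells, at 1.43 and 1.01 (limma adjusted p = 0.0136 and 0.00294). On that scale miR-9-5p was called lower in homozygous cells, at −0.75 (limma adjusted p = 0.0319).

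miR-128-3p, which dampens neuronal excitability in mice, was at 2519 and 2172 RPM in homozygous, 760 and 1920 RPM in hemizygous, 36.8 and 60.6 RPM in null and 3072 and 2714 RPM in wild-type libraries. The S1344L libraries all lay below the wild-type ones. Its change was −0.30 ± 0.90 in homozygous and −1.26 ± 0.90 in hemizygous cells (limma adjusted p = 0.858 and 0.316), with the opposite sign under median-ratio and upper-quartile scaling. The 3p members therefore ranged from −0.30 to 3.41 in homozygous cells and from −1.26 to 3.004 in hemizygous cells, while the 5p members ranged from −5.65 to −0.69 and from −6.43 to −1.29.

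Within a library, the scaling cancels, apart from the 1 RPM added, when the members of both sides are set against each other. The mean log2(RPM + 1) of the 4 5p members minus that of the 4 3p members was −4.74 and −4.65 in homozygous, −4.49 and −4.51 in hemizygous, 0.53 and −0.16 in null and −0.24 and 0.13 in wild-type libraries. All 4 S1344L libraries lay below all 4 others, and the hemizygous replicates, which differed in level, were alike in this difference.

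**Figure D3:**
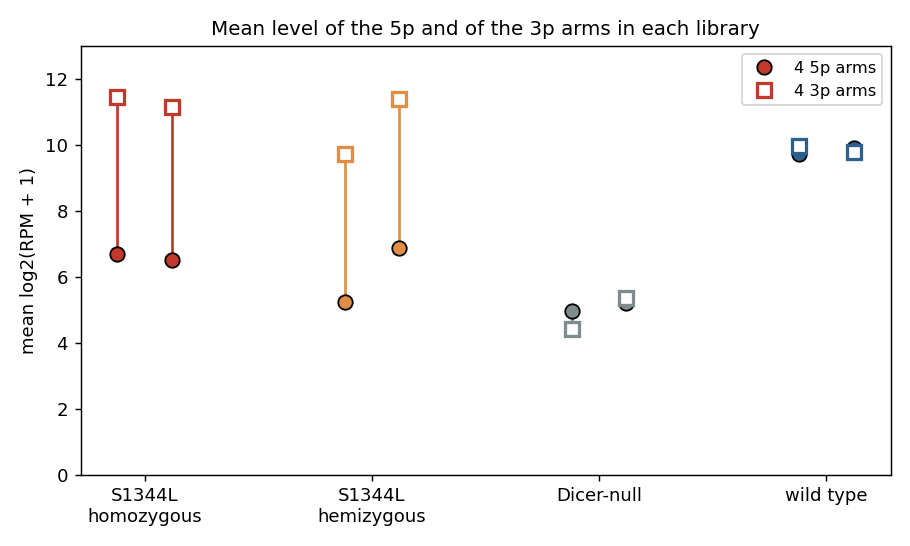
Mean log2(RPM + 1) of the 4 5p members (filled circles) and of the 4 3p members (open squares) in each library, joined by a line. In both homozygous and both hemizygous libraries the 3p mean lies more than 4 units above the 5p mean, and in null and wild-type libraries both means lie within 1 unit.

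The balance of both sides was then tested hairpin by hairpin as the log2 ratio of 3p over 5p RPM, each plus 1, over all 215 hairpins that have a measured arm on each side. The members' families gave 8 such hairpins, of which miR-7-1 and miR-7-2 share the 5p arm, as do miR-218-1 and miR-218-2, so these are not independent. In homozygous cells 7 of 8 shifted toward 3p (79.1% of all hairpins did) and 0 toward 5p (1.40%). In hemizygous cells 6 of 8 shifted toward 3p (77.2%) and 1 toward 5p (2.33%). The share of shifted member hairpins is near that of all hairpins. The member median was 7.73 in homozygous and 7.40 in hemizygous cells, beside 3.35 and 2.96 over all hairpins. That median counts the shared 5p arms more than once and includes miR-7-2 and miR-218-2, whose sizes depend on the 1 RPM added. Of the other hairpins, miR-7-1, miR-219a-2 and miR-218-1 ranked 3, 5 and 12 of 215 in homozygous cells. There miR-9, miR-124 and miR-128-1 ranked 136, 163 and 212, so the sizes were mixed.

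In the miR-7-1 and miR-218-1 hairpins the more abundant arm was 3p in S1344L cells and 5p in wild-type cells. Both 5p arms can also arise from other loci, among them MIR7-3 and MIR218-2. Their reads are therefore not those of MIR7-1 or MIR218-1 alone. miR-7-1-3p was read 1329 and 953 times in homozygous, 267 and 1125 times in hemizygous, 12 and 16 times in null and 157 and 384 times in wild-type libraries. The corresponding reads of miR-7-5p were 95 and 69 in homozygous, 54 and 53 in hemizygous, 131 and 60 in null and 7652 and 4261 in wild-type libraries. All S1344L libraries had more reads of the 3p arm, and the null and wild-type libraries more of the 5p arm. The log2 ratio of miR-7-1 averaged 3.77 in homozygous, 3.32 in hemizygous, −2.54 in null and −4.53 in wild-type cells. Its shift was 8.30 ± 0.75 in homozygous cells against wild type, the 3rd largest of 215 hairpins (limma adjusted p = 1.89e-07), and 7.85 ± 0.75 in hemizygous cells (limma adjusted p = 3.67e-07).

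The miR-218-1 hairpin, printed above with both arms, had the same exchange. miR-218-1-3p was read 196 and 160 times in homozygous, 71 and 196 times in hemizygous, 1 and 3 times in null and 52 and 79 times in wild-type libraries. Set beside the 1352 and 1154 wild-type reads of miR-218-5p, the 3p arm was the minor one in wild-type cells, and it was the major one in every S1344L library. The shift of the miR-218-1 ratio was 7.36 ± 0.53 in homozygous cells (limma adjusted p = 2.43e-08) and 7.07 ± 0.53 in hemizygous cells (limma adjusted p = 3.57e-08). At this hairpin the level of the 3p arm itself changed by 1.91 ± 1.00 in homozygous and 1.13 ± 1.00 in hemizygous cells, neither past the threshold (limma adjusted p = 0.142 and 0.438).

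The remaining 3p partners of these families were rare. miR-7-2-3p had 14 and 19 reads in homozygous, 3 and 11 in hemizygous, 1 and 1 in null and 1 and 0 in wild-type libraries. Its ratio of summed reads per denominator was 45.6 for homozygous over wild type, with a 95% interval from 7.63 to 1854 that covers counting error only, and 16.1 for hemizygous over wild type (2.45 to 682.1). miR-218-2-3p had 26 and 15 reads in homozygous, 8 and 16 in hemizygous, 0 and 0 in null and 1 and 2 in wild-type libraries. Its ratio was 18.9 for homozygous (6.02 to 95.3) and 9.22 for hemizygous over wild type (2.80 to 47.8). The miR-7-2 and miR-218-2 ratios of 3p over 5p shifted by 9.16 ± 0.59 and 8.65 ± 0.51 in homozygous cells, the 2 largest of all 215 hairpins, but with so few 3p reads in wild type these sizes depend on the 1 RPM added.

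miR-219a-2 is the member hairpin whose listed arm is 3p and whose 5p arm dominated in wild-type cells. miR-219a-5p, the arm best known to promote oligodendrocyte differentiation, was at 15.4 and 11.4 RPM in homozygous, 9.84 and 16.5 RPM in hemizygous, 7.50 and 5.99 RPM in null and 465 and 286 RPM in wild-type libraries. All 6 mutant and null libraries lay far below both wild-type ones. It changed by −4.68 ± 0.99 in homozygous and by −4.73 ± 0.99 in hemizygous cells (limma adjusted p = 5.85e-05 and 2.45e-05), and the hairpin ratio shifted by 8.10 ± 0.55 and 7.73 ± 0.55 (limma adjusted p = 1.72e-08 and 2.67e-08). miR-219a-5p also arises from MIR219A1, so its reads are not those of MIR219A2 alone.

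The miR-9 hairpin, with both arms listed, shifted less. Its log2 ratio of 3p over 5p was 0.45 and 0.57 in homozygous, −0.34 and 0.59 in hemizygous, −2.24 and −2.02 in null and −2.25 and −1.66 in wild-type libraries. The S1344L libraries all lay above the wild-type ones, and the null libraries lay within the wild-type range. The shift was 2.47 ± 0.47 in homozygous and 2.09 ± 0.47 in hemizygous cells (limma adjusted p = 0.000251 and 0.00106), and 2.55 without hemizygous replicate 1 (limma adjusted p = 0.000527). In the homozygous comparison this was rank 136 of 215, below the median hairpin.

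In miR-124 and miR-128-1, whose 3p arm was the major one in wild-type cells, the ratio moved less or the other way. Whether the shift goes with the side of the guide was not tested. The log2 ratio of miR-124 was 9.21 and 8.76 in homozygous, 8.99 and 8.39 in hemizygous, 4.09 and 3.70 in null and 7.99 and 6.24 in wild-type libraries. Its shift of 1.87 ± 0.77 in homozygous cells was called (limma adjusted p = 0.0371), and that of 1.57 ± 0.77 in hemizygous cells was not (limma adjusted p = 0.0720). Without wild-type replicate 2 the homozygous shift was 0.99 (limma adjusted p = 0.259). The call was also lost without either homozygous (limma adjusted p = 0.189 and 0.0946) or either null library (limma adjusted p = 0.0531 and 0.0522).

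miR-128-1-5p was read 33 and 36 times in homozygous, 16 and 35 times in hemizygous, 6 and 10 times in null and 19 and 32 times in wild-type libraries. The 3p guide outnumbered it in every library, with log2 ratios of 6.11 and 5.60 in homozygous, 5.87 and 5.32 in hemizygous, 2.74 and 2.04 in null and 7.57 and 6.56 in wild-type cells. The wild-type ratios were the highest, so in the mutants this ratio moved toward 5p. miR-128-3p also arises from MIR128-2, whose 5p arm was not measured, so its reads are not those of MIR128-1 alone. The shift was −1.21 ± 0.55 in homozygous cells (limma adjusted p = 0.0548), not past the threshold, and −1.47 ± 0.55 in hemizygous cells (limma adjusted p = 0.0242), past it. The hemizygous shift was −0.96 without wild-type replicate 1 (limma adjusted p = 0.177), −1.20 without hemizygous replicate 2 (limma adjusted p = 0.105) and −1.74 without hemizygous replicate 1 (limma adjusted p = 0.0237). Upper-quartile scaling also ended the hemizygous call, at −1.28 (limma adjusted p = 0.0561). The homozygous shift was called toward 5p in 5 of 14 alternatives, namely with a pseudocount of 5 (limma adjusted p = 0.0389), with a replicate block (0.0164), without either hemizygous library (0.0444 and 0.0447) and without wild-type replicate 2 (0.0266).

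**Figure D4:**
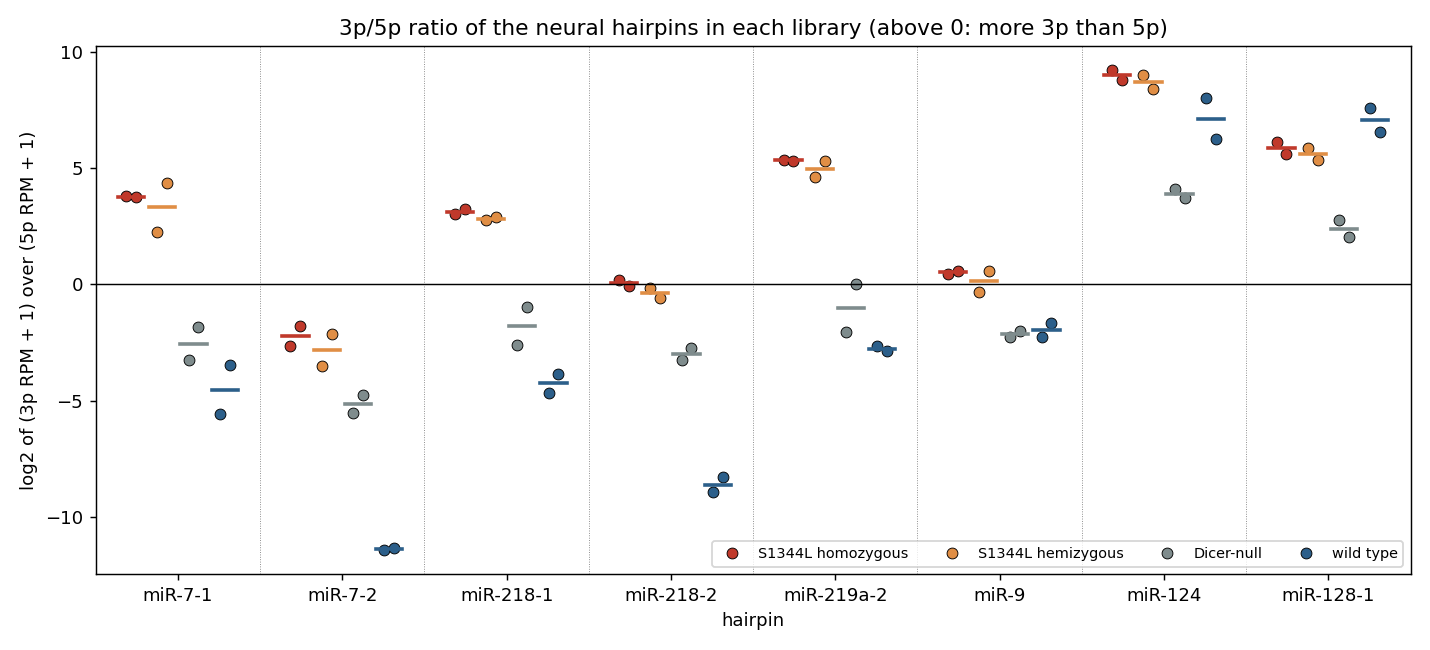
log2 of 3p RPM + 1 over 5p RPM + 1 for the 8 member hairpins, 1 point per library and a line at each genotype's mean; values above 0 mean more 3p than 5p. The S1344L points of miR-7-1, miR-218-1 and miR-219a-2 lie above 0 and the wild-type points below it, whereas miR-124 and miR-128-1 lie above 0 in every genotype.

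Among the 6 measured partner arms as single arms, 3 rose and 1 fell in homozygous cells, and 2 rose and 1 fell in hemizygous cells. Of all miRNAs, 9.93% rose and 22.2% fell in homozygous cells, and 4.04% rose and 30.6% fell in hemizygous cells. Of all 3p arms, 18.7% and 8.00% rose in these comparisons, and of all 5p arms 48.9% and 60.8% fell. The arms that rose in homozygous cells were miR-7-1-3p, miR-7-2-3p and miR-218-2-3p, with log2 changes of 2.65, 3.51 and 3.20 (limma adjusted p = 0.0210, 0.000445 and 0.00153). In hemizygous cells miR-7-2-3p and miR-218-2-3p rose, by 2.11 and 2.30 (limma adjusted p = 0.0372 and 0.0243). In both genotypes the arm that fell was miR-219a-5p.

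In Dicer-null cells 7 of the 8 members fell against wild type, where 87.2% of all 594 miRNAs fell and 1.35% rose. The changes of the 7 ran from −6.43 ± 1.00 for miR-218-5p to −3.82 ± 1.00 for miR-219a-2-3p (limma adjusted p = 1.47e-09 and 2.00e-04). The exception, miR-124-5p, had 51 and 54 reads in null and 73 and 200 reads in wild-type libraries, ranges that overlapped in RPM, and changed by −0.93 ± 1.00 (limma adjusted p = 0.370). The median over the members was −5.81, beside −4.49 over all miRNAs. Relative to that median miR-124-5p stood at 3.56, miR-219a-2-3p at 0.67, miR-124-3p at 0.35, miR-7-5p at −1.24, miR-9-5p at −1.39, miR-128-3p at −1.41, miR-9-3p at −1.56 and miR-218-5p at −1.94.

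The null result depends on the scaling of the libraries. Scaled to miRNA reads instead of the authors' denominators, the median over all miRNAs in null against wild-type cells was −0.84 in place of −4.49. Such scaling gives shares of a library's miRNA reads, so it cannot show a loss common to all miRNAs. miR-7-5p, miR-9-5p, miR-9-3p, miR-128-3p and miR-218-5p stayed lower, by −1.83, −2.03, −2.41, −2.02 and −2.63 (limma adjusted p = 0.00876, 0.000387, 0.00124, 0.000363 and 0.00161). miR-124-5p was then higher in null cells, by 2.94 (limma adjusted p = 0.00174), and miR-124-3p and miR-219a-2-3p at −0.24 and −0.44 no longer passed (limma adjusted p = 0.333 and 0.552). Under median-ratio and upper-quartile scaling miR-7-5p in null cells was at −1.22 and −0.74, neither past the threshold (limma adjusted p = 0.0790 and 0.283), while miR-9-5p, miR-9-3p, miR-128-3p and miR-218-5p were called lower under both. Upper-quartile scaling called miR-124-3p higher in null cells, at 0.86 (limma adjusted p = 0.0402). With libraries scaled to miRNA reads, the medians in homozygous and hemizygous cells against wild type were −0.10 and −0.18. Scaled in this way, the falls of miR-7-5p and miR-218-5p and the rise of miR-219a-2-3p were called in both.

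Within hairpins, 5 of 8 member ratios shifted toward 3p and 2 toward 5p in null cells, where 32.6% and 18.6% of all hairpins did. miR-7-2, miR-218-2, miR-218-1, miR-7-1 and miR-219a-2 shifted toward 3p, by 6.23, 5.63, 2.46, 1.99 and 1.75 (limma adjusted p = 6.36e-06, 6.36e-06, 0.00210, 0.0390 and 0.0183). The 3p arms behind these values had 16 or fewer reads per null library. miR-128-1 and miR-124 shifted toward 5p, by −4.67 ± 0.55 and −3.22 ± 0.77 (limma adjusted p = 2.15e-05 and 0.00381), and miR-9 did not pass, at −0.17 ± 0.47 (limma adjusted p = 0.770). Without null replicate 2, the miR-219a-2 and miR-7-1 values were 0.73 and 1.27 (limma adjusted p = 0.200 and 0.275). Each of these hairpins lost its call in 6 of 14 alternatives, among them all 3 other scalings, under which miR-7-2, miR-218-2 and miR-218-1 were the members called toward 3p.

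Set against the null cells, both S1344L genotypes had all 4 3p members and 1 of the 4 5p members at higher levels. Higher arms made up 76.3% of all miRNAs in homozygous against null cells, 53.3% of the 5p and 96.3% of the 3p arms, and 63.8%, 34.4% and 90.0% in hemizygous against null cells. miR-9-3p, miR-219a-2-3p, miR-128-3p and miR-124-3p were higher by 7.84, 7.23, 5.60 and 4.92 in homozygous cells and by 6.76, 6.82, 4.65 and 4.43 in hemizygous cells, the largest limma adjusted p being 1.75e-06. miR-9-5p was higher by 5.19 ± 0.94 in homozygous and 4.50 ± 0.94 in hemizygous cells (limma adjusted p = 1.41e-07 and 8.52e-06).

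The other 5p members were near their null levels on the deposited scale. miR-7-5p differed from null by 0.08 ± 0.96 in homozygous cells, with a 95% interval from −1.81 to 1.97, and by −0.70 ± 0.96 in hemizygous cells (limma adjusted p = 0.946 and 0.527). miR-218-5p differed by 0.97 ± 1.00 and 0.48 ± 1.00 (limma adjusted p = 0.366 and 0.677) and miR-124-5p by −0.17 ± 1.00 and −0.36 ± 1.00 (limma adjusted p = 0.879 and 0.757). Scaled to miRNA reads, a level is a share of the miRNA reads of its library, which were 0.118 and 0.183 of the denominator in null libraries. On that scale all 8 members were called against null in both genotypes, as were 67.5% of all miRNAs in homozygous and 64.6% in hemizygous cells. As such shares, miR-7-5p and miR-218-5p were lower than in null cells, by −3.85 and −2.81 in homozygous cells.

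Between hemizygous and homozygous cells, limma called 0 of 8 members and 0.00% of all 594 miRNAs, with 0 members and 7 miRNAs at an unadjusted p under 0.05. The members' differences ran from −1.08 for miR-9-3p (95% interval from −2.97 to 0.82) to −0.19 for miR-124-5p (−2.16 to 1.78), beside a median of −0.85 over all miRNAs. These intervals leave room for differences of several fold in either direction. Without hemizygous replicate 2, 5 members were called lower in hemizygous cells, where 72.9% of all miRNAs were called, and the median over all miRNAs was −1.81. Without hemizygous replicate 1, 0 members were called and the median was 0.13.

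Of 16 other miRNAs known in neurons or glia, 11 were measured, 5 of them 5p and 6 of them 3p arms. In both S1344L genotypes 5 fell and 0 rose against wild type, of which 4 were 5p arms and 1 was a 3p arm. Of all miRNAs 22.2% fell in homozygous and 30.6% in hemizygous cells, and of all 5p arms 48.9% and 60.8%. The 5p arms that fell include miR-219a-5p, counted above as a partner arm. miR-125b-5p, known in neural differentiation, was at 159 and 93.2 RPM in homozygous, 38.3 and 150 RPM in hemizygous, 64.0 and 123 RPM in null and 2091 and 1884 RPM in wild-type libraries. Its change was −4.01 ± 0.96 in homozygous and −4.69 ± 0.96 in hemizygous cells (limma adjusted p = 0.000441 and 1.84e-05). Beside it and miR-219a-5p, miR-149-5p changed by −3.23 and −3.76 and miR-204-5p, abundant in the retinal pigment epithelium and choroid plexus, by −2.57 and −3.41 (limma adjusted p = 0.00568, 0.000769, 0.0265 and 0.00216).

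The 3p arm that fell was miR-338-3p, an oligodendrocyte miRNA like miR-219a, at −2.35 in homozygous and −3.22 in hemizygous cells (limma adjusted p = 0.0473 and 0.00398); it was named after its values were seen. The median over the 11 was −1.23 in homozygous and −2.17 in hemizygous cells, beside −0.04 and −0.89 over all miRNAs. In null cells all 11 fell, where 87.2% of all miRNAs did. The largest of these falls were those of miR-338-3p, miR-153-3p, miR-149-5p and miR-219a-5p, by −6.09, −6.02, −5.82 and −5.57 (limma adjusted p = 2.60e-09, 4.19e-09, 1.65e-08 and 6.58e-08).

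For each member, the arm with the most similar profile over the 8 libraries was sought among the 493 miRNAs with a mean of at least 50 RPM in a genotype. These correlations carry no p, since the points share the scaling of their library. miR-7-5p was closest to miR-518f-5p (Pearson r = 0.991), miR-218-5p to let-7a-5p (r = 0.9996) and miR-124-5p to miR-92a-2-5p (r = 0.954), all of them 5p arms. miR-9-3p was closest to miR-425-3p (r = 0.9997), miR-219a-2-3p to miR-15a-3p (r = 0.995) and miR-124-3p to miR-532-3p (r = 0.999), all of them 3p arms. miR-9-5p was closest to the 3p arm miR-520c-3p (r = 0.998) and miR-128-3p to the 5p arm miR-498-5p (r = 0.999), so these members had profiles most like an arm of the opposite side. let-7a-5p averaged 148 RPM in homozygous, 140 RPM in hemizygous, 74.0 RPM in null and 6062 RPM in wild-type cells, the same order as miR-218-5p.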

How the data were processed

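Small RNAs of H1 cells were sequenced in 8 libraries, 2 for each of 4 genotypes. Per the labels' protocols, spike-in RNAs were added to total RNA before ligation of linkers to both ends; the table holds 0 spike-in entries. The submitters' processing notes name cutadapt, limma and hg38. How reads were aligned, counted and scaled is not given here. The authors deposited log2 values, and from their steps whole reads were recovered for every miRNA, with a largest distance from a whole read of 7.31e-09; each value is the log2 of reads plus 0.5 over a denominator, times 1000000. The analysis had been planned for RPM, so values were turned back to RPM.

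The log2(RPM + 1) values of all libraries entered 1 limma fit (version 3.58.1, R 4.3.3) of 4 genotype means with a variance trend. Its prior degrees of freedom were infinite, so each SE came from the trend alone, and 9.60 for ratios. With only the 4 libraries compared, 62.6% of all miRNAs were called in homozygous and 18.4% in hemizygous cells against wild type. In the main fit these shares were 32.2% and 34.7%. Tests were two-sided, and p was adjusted by Benjamini-Hochberg over all 594 miRNAs, or over all 215 hairpins for ratios, with a threshold of 0.05. The filter of 5 RPM in 2 libraries removed none, and all 8 members passed. Fold changes of low arms are understated by the 1 RPM added. Intervals on read ratios cover counting error only, since PCR reads carry no molecular identifiers. Named miRNAs are all members, their partner arms, up to 4 called miRNAs per comparison from a list of other neural miRNAs, and the most similar arm of each member. The members and lists were chosen with earlier results of these data known. Sequences and coordinates are RefSeq's on GRCh38.p14, and overlaps with genes are GENCODE's. Other scalings, pseudocounts, filters, weights, leaving out single libraries and a replicate block were tried. The library scale cancels within a hairpin except for the 1 RPM added.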

Additional observations from a re-analysis of the deposited data

How the results depend on the processing

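The falls of miR-7-5p and miR-218-5p in homozygous and hemizygous cells kept their call in all 19 alternatives tried, between −6.00 and −4.73 and between −5.61 and −4.49 in homozygous cells. Members called numbered 6, 5 and 5 in homozygous and 5, 5 and 5 in hemizygous cells against wild type under scaling to miRNA reads, median-ratio scaling and upper-quartile scaling, and 6, 5 and 6 in null cells in place of 7, and 8 under each of these scalings in homozygous and in hemizygous against null cells; with only the 4 libraries compared, 6 were called in homozygous cells, and 2 in hemizygous cells, where miR-219a-2-3p lost its call at 3.004 (limma adjusted p = 0.113). The main fit called 3 in both genotypes, as did the pseudocounts, filters, voom weights and fit without a variance trend. Leaving out 1 library gave 2 to 4 (homozygous), 2 to 6 (hemizygous) and 7 to 7 (null) against wild type, 0 to 5 in hemizygous against homozygous cells, and 5 to 5 and 5 to 6 in homozygous and hemizygous against null cells; shifted hairpins numbered 6 to 8, 6 to 7 and 5 to 7 in homozygous, hemizygous and null cells. Under the 3 scalings in that order, miR-124-5p in null against wild-type cells reversed to 2.94, 3.54 and 4.01, and under the last 2 miR-124-3p to 0.37 and 0.86 and miR-219a-2-3p to 0.14 and 0.59. In homozygous against null cells miR-7-5p reversed to −3.85, −3.99 and −3.99 and miR-218-5p to −2.81, −2.95 and −2.95, and in hemizygous against null cells miR-218-5p to −2.58, −2.62 and −2.60. Against wild type, miR-128-3p reversed under the last 2 to 0.11 and 0.60 in homozygous and 0.059 and 0.57 in hemizygous cells, and under upper-quartile scaling miR-9-5p to 0.21 and 0.44 and miR-124-5p to 0.49 in hemizygous cells. In hemizygous against homozygous cells, reversed values under the 3 scalings were 0.10, 0.21 and 0.23 for miR-9-5p, 0.57, 0.67 and 0.70 for miR-124-5p, 0.31, 0.42 and 0.44 for miR-124-3p, 0.23, 0.33 and 0.36 for miR-218-5p and 0.38, 0.49 and 0.51 for miR-219a-2-3p, and 0.11 and 0.13 under the last 2 for miR-7-5p. The shift of miR-9 in null cells reversed to 0.40 with a pseudocount of 5. The 5p minus 3p difference within libraries was −4.52 and −4.35 in hemizygous cells with pseudocounts of 0.5 and 5, −4.59 in homozygous cells with 5, and in null cells, at 0.18 with 1, it was 0.26 with 0.5 and turned to −0.12 with 5. Beyond the scalings' own construction, the cause of these changes was not tested. With single libraries left out, values that crossed 0 ranged from −0.68 to 2.09 for miR-9-3p and −0.33 to 0.90 for miR-124-3p in hemizygous against wild-type cells, and in null against wild-type cells from −0.46 to 0.12 for the miR-9 ratio. In hemizygous against homozygous cells they ranged from −1.61 to 0.22 for miR-9-5p, −2.46 to 0.30 for miR-9-3p, −1.10 to 0.72 for miR-124-5p, −1.10 to 0.13 for miR-124-3p, −1.55 to 0.58 for miR-218-5p and −1.10 to 0.28 for miR-219a-2-3p. Against null they ranged from −0.057 to 0.22 for miR-7-5p and −0.65 to 0.31 for miR-124-5p in homozygous cells, and from −1.28 to 0.55 for miR-124-5p and −0.58 to 1.55 for miR-218-5p in hemizygous cells. Replicate numbers were not taken as pairs in the main fit. The differences of replicate 2 over replicate 1 correlated between −0.11 and 0.62, the highest being that of hemizygous and wild-type cells. Whether the numbers mark a shared batch was not tested. With a replicate block, members called numbered 3, 3 and 7 against wild type in homozygous, hemizygous and null cells, and shifted hairpins 8, 8 and 7. A count test on recovered reads (edgeR or DESeq2) was planned but not run; voom weights on the recovered reads, added after the data were seen, changed no count of members called. Null libraries of at most 165317 miRNA reads limit the precision of arms with few reads there.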
